A study of Danio rerio with 6 samples.

Results

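The cytosolic ribosome translates messenger RNA in every cell, and its proteins are encoded by a family of highly expressed genes. The small subunit reads the message, while the large subunit joins amino acids and guides the new chain out through its exit tunnel. Most of the proteins are built into subunits in equal numbers. The mRNAs of ribosomal proteins are translated under the control of mTORC1 through a pyrimidine tract at the 5′ end. A shortage of single members is known to stabilise p53 and, in zebrafish, to favour tumours. The members were the genes whose symbol starts with rpl or rps and a number, or with rplp0 to rplp2. Of 92 such symbols among 24923 genes, 11 rps6k kinase genes and 2 symbols with a number before l1 (rpl7l1 and rpl22l1) were left out, so that 79 members remained. Of these, 45 carry symbols of the large subunit and 33 those of the small subunit. The last, rps19bp1, encodes a nucleolar protein that binds Rps19 and is not itself a part of the ribosome. The rule reads gene symbols only.

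Tail fin tissue of zebrafish larvae was compared between 3 replicates exposed to 8 μM sunitinib, an inhibitor of several receptor tyrosine kinases, and 3 vehicle replicates in 0.1% DMSO. Exposure began 2 days post fertilization, the fin was cut at 3 days and tissue was taken 6 h after amputation, so that both groups were wounded and an uncut fin was not analysed here. Every library came from pooled fins of more than 60 larvae, and which of the AB strain and the Tg(MPEG-GFP) line, both named in the labels, gave the RNA is not stated there. The comparison asked whether sunitinib altered the mRNA levels of ribosomal proteins in the wounded fin.

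Estimated read counts per gene were scaled by TMM, a normalisation between libraries, and are given as normalised CPM. This is the count divided by the product of library total and TMM factor, on a fixed scale. The TMM factors were 1.070, 0.978 and 1.023 in DMSO replicates 1, 2 and 3. In sunitinib replicates 1, 2 and 3 they were 0.900, 1.065 and 0.973. Shares of counts below are of the unscaled library totals, so they can order the libraries differently. Groups were compared with the quasi-likelihood test of edgeR, fitted across all genes, with p-values adjusted over the 17309 genes tested. All 79 members passed the filter on low counts. An estimate below is the log2 fold change of sunitinib against DMSO, and SE is its standard error.

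Library totals ran from 13394060 to 15294706 estimated reads. DMSO replicate 1 stood apart. Its counts differed from those of the other libraries by a chi-square of 35.2 to 60.8 for each degree of freedom, and the remaining pairs differed by 8.60 to 24.6. Its 32 skeletal muscle markers took 16.8% of the counts, against 21.5% to 23.3% in the other 5 libraries. The epidermis list and the notochord and fin fold list took 3.02% to 4.06% and 0.693% to 0.915% of counts. None of their markers was at 0 in all 6 libraries. The tissue was thus a mixture that held skeletal muscle, and these lists do not separate fin from trunk. With sunitinib, 19 of 23 epidermis markers had estimates above 0, while 18 of 20 notochord and fin fold markers and 15 of 18 endothelium markers had estimates below 0. Their part in the results was not tested, and in such a mixed tissue fewer cells of a type and less RNA per cell cannot be told apart.

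The ribosomal protein genes were not detectably different between sunitinib and DMSO. None of the 79 passed an adjusted p of 0.05 in edgeR, as was true of all genes (0% called), and their smallest adjusted p was 0.405. None had an unadjusted p under 0.05 either, while 13.6% of all tested genes did, 7.51% higher and 6.12% lower with sunitinib. DESeq2 called none at an adjusted p of 0.05 and gave only rpl5b an unadjusted p under 0.05, with 4.45% of all genes higher at that level. Estimates were above 0 in 55 members and below 0 in 24, with a median of 0.09, beside -0.004 for all genes tested. The median absolute log2 fold change was 0.14 for the members and 0.21 for all genes tested. By subunit, 34 of 45 large subunit genes and 21 of 34 genes with a small subunit symbol had estimates above 0, and both medians were 0.08 to 0.09. The 95% interval of the difference lay inside 1 log2 unit on either side of 0 for 78 members and inside 0.5 for 21. The interval thus left out a change of 2-fold for every member except rps8b, which had few reads, whereas smaller changes were not excluded for most.

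**Figure D1:**
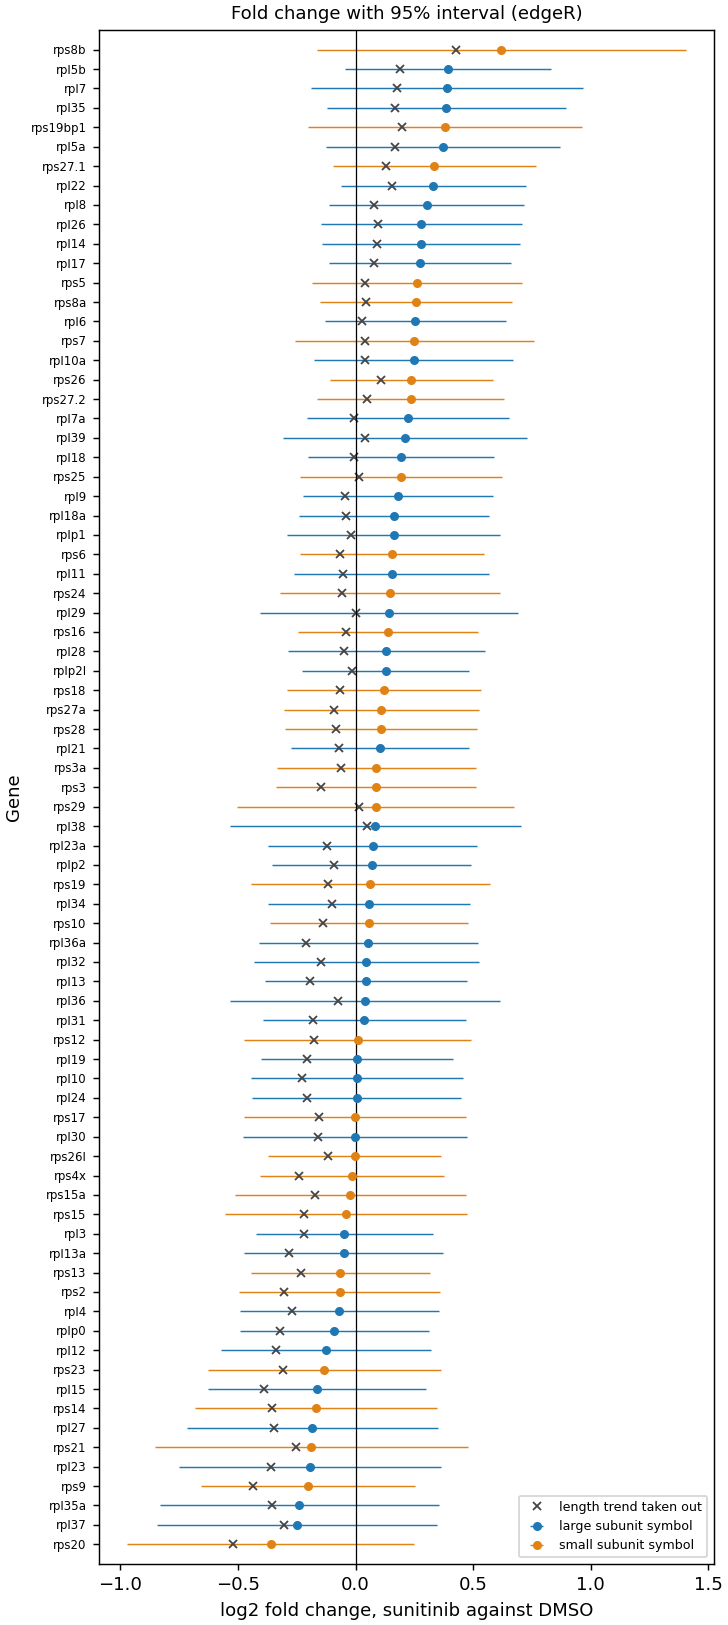
The log2 fold change of sunitinib against DMSO (x axis) for 78 of the 79 genes (y axis), with its 95% interval from edgeR as a line. Blue and orange mark symbols of the large and small subunit, and crosses give the estimate after removal of the length trend. Every interval shown crosses 0, and the estimates run from -0.36 for rps20 to 0.62 for rps8b.

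As a share of the library, the members took 14.1%, 11.2% and 11.3% of the counts in DMSO replicates 1, 2 and 3. With sunitinib the share was 13.6%, 10.7% and 11.5%. The high libraries were replicate 1 of each group, and the groups overlapped. The mean was 12.2% ± 1.64 (SD, n = 3) with DMSO. With sunitinib it was 11.9% ± 1.501 (SD, n = 3), a difference of -0.239 percentage points. That difference was smaller than either SD, and it turned to 0.708 without DMSO replicate 1 and to 0.378 without sunitinib replicate 2. These shares are of unscaled library totals, while the estimates above use TMM scaling, so the signs of share and estimates need not match. Because muscle markers varied between libraries, the share was also taken of the counts outside them. It was then 16.9%, 14.6% and 14.4% with DMSO and 17.6%, 13.6% and 14.9% with sunitinib, so replicate 1 of each group was high on this scale too. Per unit of length, the members held 28.7% to 36.8% of all TPM with DMSO and 27.8% to 32.6% with sunitinib. Large subunit genes took 7.24% ± 0.882 of the counts with DMSO and 7.23% ± 0.846 with sunitinib (SD, n = 3), and small subunit symbols took 4.94% ± 0.759 and 4.72% ± 0.656. Neither subunit differed between groups by more than the spread between replicates.

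**Figure D2:**
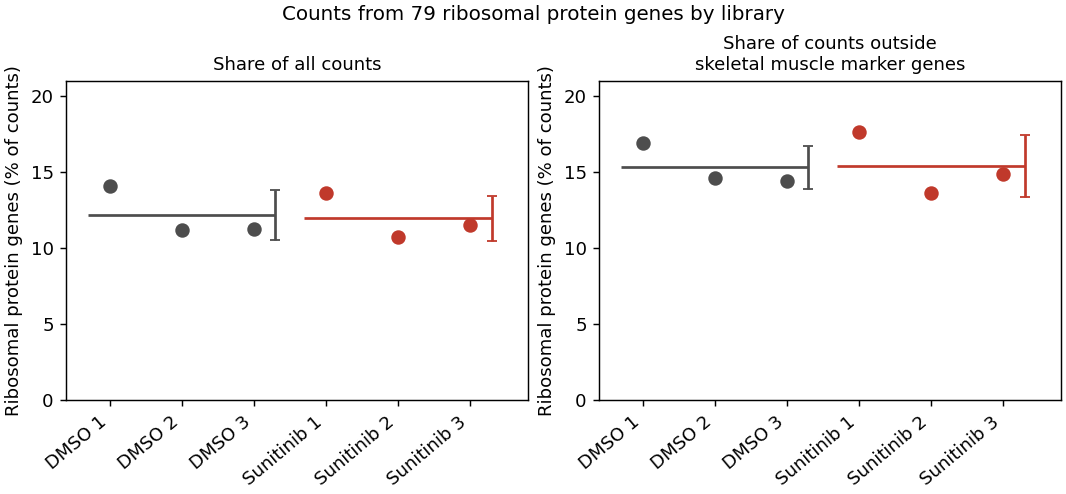
Share of counts that fell in the 79 genes (y axis, percent) in each of the 6 libraries (x axis), of all counts on the left and of the counts outside skeletal muscle markers on the right. Points are libraries, horizontal lines are group means and bars are SDs (n = 3). Replicate 1 is the highest in both groups, and the means of 12.2% and 11.9% differ by less than the SD.

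The larger differences lay inside the groups. In the sunitinib group nearly all members stood in the same order. Sunitinib replicate 1 was the highest of its group in 78 of 79 genes, all but rpl4, and sunitinib replicate 2 was the lowest in 76, all but rpl4, rplp0 and rps3a. The median log2 difference of sunitinib replicate 1 from the mean of sunitinib replicates 2 and 3 was 0.51, with an SD of 0.17 over the genes. This was taken on normalised CPM, which a low TMM factor raises. The factor was 0.900 in sunitinib replicate 1, against 1.065 and 0.973 in replicates 2 and 3. Sunitinib replicate 2 differed from replicate 3 by a median of -0.26 on the log2 scale (SD over genes 0.13). The median coefficient of variation in this group was 23.1% for the members and 13.41% for all genes tested. The members thus moved nearly as a block from one sunitinib library to another. Short genes in general also tended to be higher in sunitinib replicate 1, as given below with gene length. How much of the block shift they share was not tested.

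DMSO replicate 1 departed in another way, with some members far above and others far below their level in DMSO replicates 2 and 3. It was above both in 51 genes, below both in 23 and between them in 5. The log2 difference from their mean had a median of 0.21 and an SD over genes of 0.47, and it ran from -1.25 for rps19bp1 to 1.29 for rps21. In 17 genes DMSO replicate 1 was over 1.5 times the mean of the other two, and in 5 genes (rpl5a, rpl5b, rpl7, rps7 and rps19bp1) it was under that mean by more than 1.5 times. DMSO replicates 2 and 3 were close to each other, with a median log2 difference of 0.02, an SD over genes of 0.11 and a median coefficient of variation of 3.49%, beside 9.95% for all genes tested. The proportions among members were thus similar in DMSO replicates 2 and 3 and different in DMSO replicate 1. Across the 6 libraries, the highest value lay in sunitinib replicate 1 for 57 members and in DMSO replicate 1 for 22, and the lowest lay in sunitinib replicate 2 for 49.

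**Figure D3:**
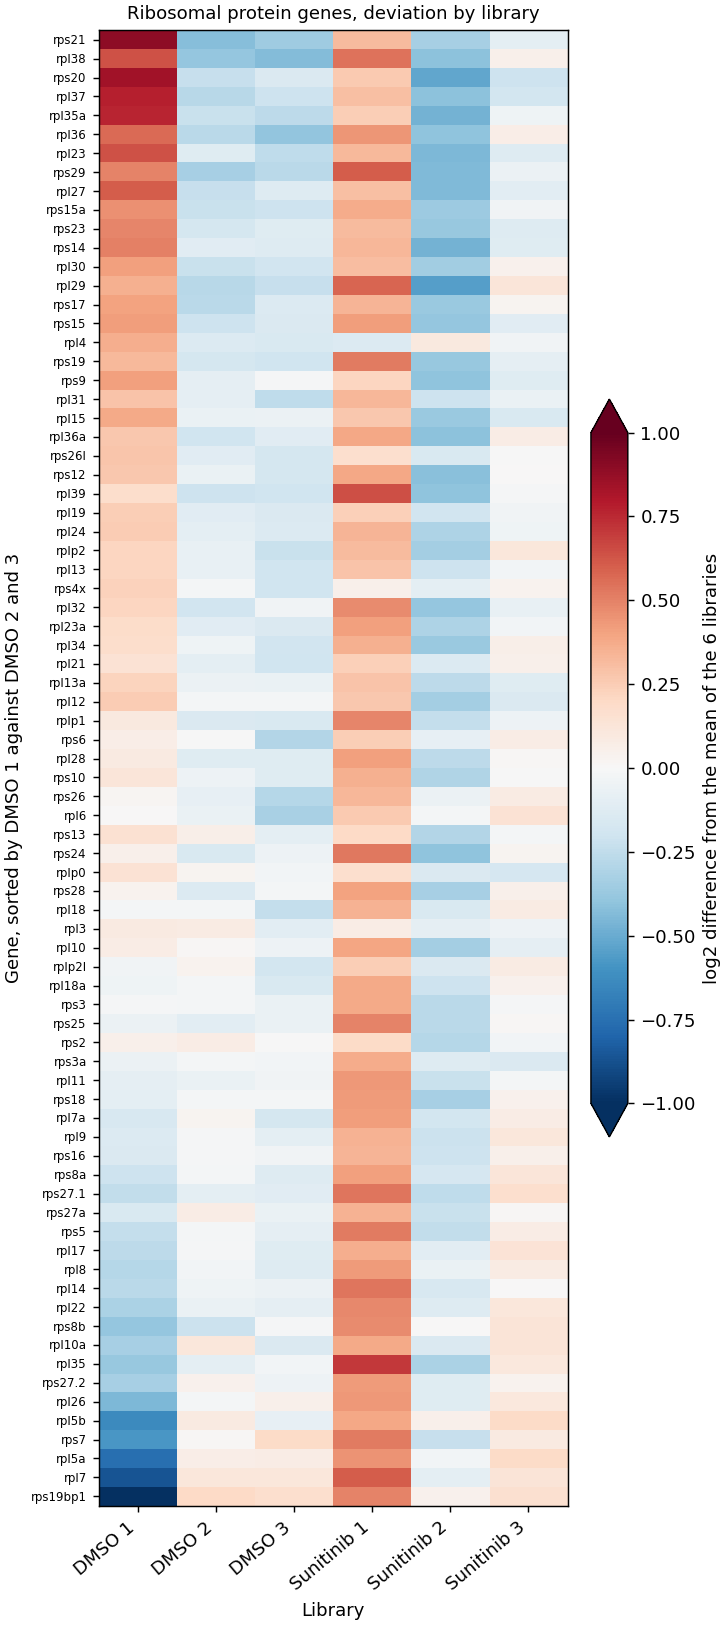
The log2 difference of 78 of the 79 genes (y axis, sorted by DMSO replicate 1 against DMSO replicates 2 and 3) from the mean of that gene over the 6 libraries (x axis), red for higher and blue for lower. The column of sunitinib replicate 1 is red nearly throughout, that of sunitinib replicate 2 is mostly blue, and DMSO replicate 1 turns from red at rps21 to blue at rps19bp1.

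When libraries that stood apart were left out, the median over the members moved in both directions. Without DMSO replicate 1 the median estimate was 0.16, with 73 values above 0 and 6 below, and without sunitinib replicate 1 it was -0.10, with 25 above 0 and 54 below. With both left out, an alternative chosen after the data were seen, it was -0.02, with 38 above 0 and 41 below. None of these 3 fits called a member at an adjusted p of 0.05. At an unadjusted p under 0.05, rpl38 was higher without DMSO replicate 1, rpl5b without DMSO replicate 2 and rpl22, rpl35 and rps27.1 without sunitinib replicate 2. These are 1.27%, 1.27% and 3.797% of the members, beside 6.91%, 9.71% and 7.08% of all genes higher in those fits, so each share was below the background. No member passed that level without DMSO replicate 3, sunitinib replicate 1 or sunitinib replicate 3, or with a replicate block, where 5.92%, 4.91%, 4.88% and 5.69% of all genes were higher. The direction of the family as a whole was therefore not settled by these libraries.

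Effective length, the length that the deposited counts and FPKM imply, also moved with the values. The members are short, with a median effective length of 293 bases beside 2052 for all genes tested. Across all genes tested, estimates and effective length had a Spearman correlation of -0.40, and among the 79 members it was 0.17, in both cases from the same 6 libraries and over genes, which are not independent. Over all genes tested, the deviation from the 6-library mean had a Spearman correlation with effective length of -0.39, -0.13 and -0.19 in sunitinib replicates 1, 2 and 3. In DMSO replicates 1, 2 and 3 it was 0.22, 0.06 and 0.33. With the length trend taken out of each library, the members' median was -0.08, with 24 values above 0 and 55 below. The median SE of the members was 0.20 before and 0.14 after this step, beside 0.20 and 0.19 for all genes tested. At an unadjusted p under 0.05, 7 were then lower (among them rpl12, rpl15, rplp0, rps9, rps14 and rps20) and none higher. This was 8.86% of the members, beside 5.77% of all genes lower and 5.68% higher in that fit, and none passed an adjusted p of 0.05.

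**Figure D4:**
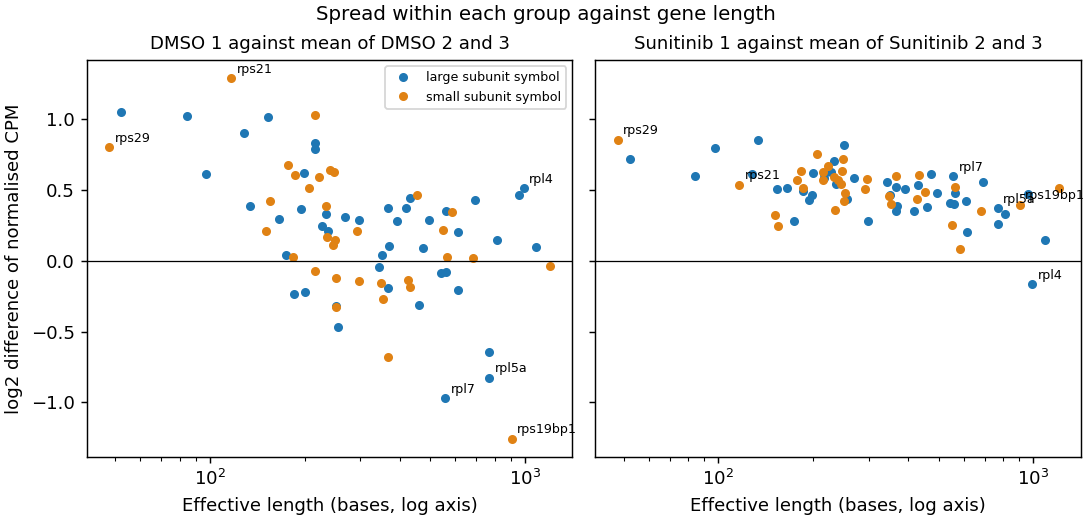
For 78 of the 79 genes, the log2 difference of normalised CPM (y axis) between replicate 1 and the mean of replicates 2 and 3 against effective length in bases (x axis, log scale), in the DMSO group on the left and the sunitinib group on the right. Sunitinib replicate 1 lies in a narrow band above 0 apart from rpl4, while DMSO replicate 1 spreads from -1.25 to 1.29, with many of the shortest genes at the top. The Spearman correlation of the deviation from the 6-library mean, which is not the difference plotted, with length among members was -0.42 in DMSO replicate 1 and -0.22 in sunitinib replicate 1. It was 0.63 and 0.42 in DMSO replicates 2 and 3, and 0.57 and 0.12 in sunitinib replicates 2 and 3.

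Levels differed widely between members. Leaving out rps8b and rps19bp1, the other 77 had mean TPM values from 916 for rpl31 to 12699 for rps29, with a median of 3357. Of the 100 genes with the highest mean TPM in the table, 58 were members. The 5 highest by mean TPM were rps29, rpl37, rps12, rplp1 and rpl35a, at 12699, 12042, 8977, 7564 and 7454. The highest values rest on very short effective lengths, 47.8 bases for rps29 and 84.4 for rpl37, so their place depends on how the length was estimated. At the low end, rpl31, rpl5b and rpl36a had mean TPM of 916, 1178 and 1183. Effective lengths were 960 bases for rpl31 and 692 for rpl36a, beside a member median of 293, so their low place depends on the length too. rpl5b is a copy in a duplicated pair. In the count-based CPM, which takes no account of length, rps2 was the most abundant. Its protein lies near the entry of the mRNA channel. rps2 had 5869, 5974 and 5633 normalised CPM with DMSO and 6476, 4648 and 5551 with sunitinib, and the groups overlapped. The widest range over the 6 libraries was 3.09-fold, for rps19bp1, and the narrowest was 1.14-fold, for rpl3, which encodes a core protein near the peptidyl transferase centre. rpl3 had 2819, 2807 and 2469 normalised CPM with DMSO and 2787, 2487 and 2555 with sunitinib. The median range was 1.68-fold for the members and 1.63-fold for all genes tested.

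Of the 10 members with the smallest p, 7 belonged to the large subunit. The first of them was rpl5b. Together with rpl5a and rpl11 it encodes the proteins that bind 5S ribosomal RNA, a particle that in human cells also binds the p53 regulator MDM2 when ribosome assembly fails. rpl5b was at 719, 1192 and 1060.2 normalised CPM with DMSO and at 1460.1, 1161 and 1278 with sunitinib. DMSO replicate 1 was the low library, and sunitinib replicate 2 lay below DMSO replicate 2, so the groups overlapped. The estimate was 0.39 (SE 0.20, 95% interval -0.05 to 0.83, adjusted p = 0.405, edgeR), and it was 0.21 without DMSO replicate 1. Its duplicate rpl5a had 897, 1586 and 1591 with DMSO and 2067, 1485 and 1723 with sunitinib. The estimate for rpl5a was 0.37 (SE 0.23, adjusted p = 0.474, edgeR), which was 0.15 without DMSO replicate 1. rpl11 was even across DMSO, at 1273, 1299 and 1323 normalised CPM, and was at 1832, 1162 and 1339.6 with sunitinib, an estimate of 0.15 (SE 0.19). rpl11 thus lacked the low value in DMSO replicate 1 that both rpl5 copies showed.

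The same low value marked rpl7, another large subunit protein. It had 1249.8, 2451 and 2449 normalised CPM with DMSO and 3461, 2120.1 and 2475 with sunitinib. Its estimate of 0.39 (SE 0.27, adjusted p = 0.514, edgeR) was 0.13 without DMSO replicate 1 and 0.17 without sunitinib replicate 1. rpl22, whose mouse counterpart has a role in lymphocyte development, was at 467, 555 and 547 with DMSO and at 813, 532 and 631 with sunitinib. Sunitinib replicates 1 and 3 lay above the DMSO range and replicate 2 inside it, and the estimate was 0.33 (SE 0.18, adjusted p = 0.427, edgeR), which was 0.16 without sunitinib replicate 1. rpl35, a protein at the rim of the exit tunnel, had 842, 1024 and 1076 with DMSO and 1791, 877 and 1178 with sunitinib. Its estimate was 0.39 (SE 0.24) and 0.07 without sunitinib replicate 1, and sunitinib replicate 2 again lay inside the DMSO range.

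The core protein gene rpl8 had 2101, 2513 and 2344 normalised CPM with DMSO and 3433, 2441 and 2709 with sunitinib, an estimate of 0.30 (SE 0.19). For rpl17, whose protein lines the exit tunnel, the values were 1184, 1404 and 1305 with DMSO and 1829.8, 1322 and 1558 with sunitinib, an estimate of 0.28 (SE 0.18). In both genes sunitinib replicates 1 and 3 were the highest libraries and replicate 2 lay among the DMSO values, and both estimates were 0.16 without sunitinib replicate 1. By a grouping of roles made after the data were seen, 7 of the 8 genes of the exit tunnel and its rim had estimates above 0 and rpl4 one below, with a median of 0.14. None of the 8 had an unadjusted p under 0.05. rpl4, whose protein reaches into the tunnel wall, was the gene that did not follow the others in the sunitinib group. It had 3102, 2189 and 2167 with DMSO and 2191, 2571 and 2349 with sunitinib, so that its highest sunitinib value was in replicate 2. Its estimate was -0.07 (SE 0.20).

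**Figure D5:**
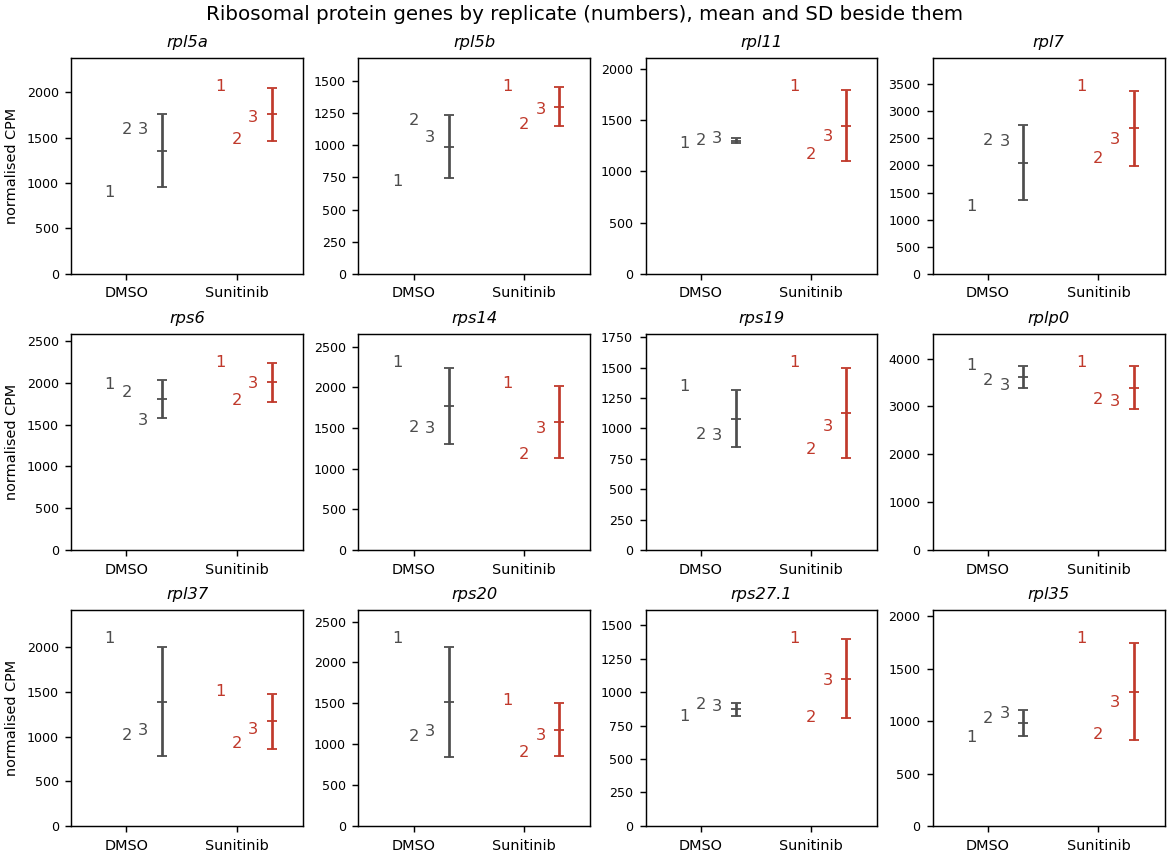
Normalised CPM (y axis) of 12 ribosomal protein genes in each replicate, shown as the numbers 1 to 3, with DMSO in grey and sunitinib in red and the mean and SD (n = 3) beside them. The values of the groups overlap in every panel. DMSO replicate 1 is the lowest of its group for rpl5a, rpl5b and rpl7 and the highest for rpl37 and rps20.

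The lateral stalk, which recruits the factors of elongation, is built on the protein of rplp0 with rpl12 and the small acidic proteins of rplp1, rplp2 and rplp2l. rplp0, often used as a reference gene in PCR, had 3859.7, 3549.9 and 3430.1 normalised CPM with DMSO and 3923, 3151 and 3109 with sunitinib. Sunitinib replicate 1 was the highest of all 6 libraries and the other two sunitinib replicates were the lowest. The estimate was -0.09 (SE 0.19, 95% interval -0.49 to 0.31). rpl12 had an estimate of -0.13 (SE 0.21). rplp1, the member of the stalk with the highest mean TPM, had 2294, 1945 and 1934 normalised CPM with DMSO and 3007, 1822 and 2077 with sunitinib, an estimate of 0.16 (SE 0.21). For rplp2 and rplp2l the estimates were 0.07 and 0.13 (SE 0.20 and 0.16). The stalk genes therefore lay on both sides of 0, each within its standard error. With the length trend taken out all 5 estimates were below 0, at -0.34 for rpl12, -0.32 for rplp0, -0.09 for rplp2 and -0.02 for both rplp1 and rplp2l.

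Among small subunit genes, rps6 encodes the main phosphorylation target of S6 kinase, which acts below mTORC1. It was at 1979, 1883 and 1546 normalised CPM with DMSO and at 2247, 1785 and 1992 with sunitinib. The means were 1803 ± 227 and 2008 ± 232 (SD, n = 3), an estimate of 0.16 (SE 0.18). rps19, the gene most often mutated in human Diamond-Blackfan anemia, had 1348, 953 and 939 with DMSO and 1544, 828 and 1012 with sunitinib, an estimate of 0.06 (SE 0.23). rps14, whose human counterpart lies in the region lost in a subtype of myelodysplastic syndrome, had 2307, 1508 and 1488 with DMSO and 2051, 1170.4 and 1498 with sunitinib, an estimate of -0.17 (SE 0.24). In both genes replicate 1 was the highest of each group. Of 21 members whose human counterparts are mutated in Diamond-Blackfan anemia, a list written after the data were seen, 16 had estimates above 0 and 5 below, with a median of 0.15, and none had an unadjusted p under 0.05. rps12, the small subunit gene after rps29 in the order of mean TPM, had 3133, 2485 and 2305 normalised CPM with DMSO and 3401, 1955 and 2618 with sunitinib. Its estimate was 0.01 (SE 0.22), and its lowest and highest libraries were both in the sunitinib group.

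Estimates at the low end belonged to rps20, a structural protein of the small subunit, and to rpl37 of the large subunit. rps20 had 2295, 1092 and 1156 normalised CPM with DMSO and 1536, 895 and 1107 with sunitinib. DMSO replicate 1 was 2.04 times the mean of the other two, and sunitinib replicate 1 lay above both of those. Its estimate was -0.36 (SE 0.28, 95% interval -0.97 to 0.25), and 0.07 without DMSO replicate 1. rpl37 had 2099, 1009.9 and 1064 with DMSO and 1509.6, 919.9 and 1082 with sunitinib, with an estimate of -0.25 (SE 0.28) that was 0.17 without DMSO replicate 1. The negative estimates of both genes thus rested on DMSO replicate 1.

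The highest ratio of DMSO replicate 1 to the mean of the other two, 2.44, was in rps21, with 1399.8, 560.1 and 587 normalised CPM in the DMSO replicates and 938, 596 and 702 with sunitinib. In rpl38, a large subunit gene that in mouse has a role in the patterning of the axial skeleton, the ratio was 2.06. rpl38 had 561, 277 and 267 with DMSO and 525, 272 and 374 with sunitinib, and its estimate turned from 0.08 to 0.52 without DMSO replicate 1. In the opposite direction rps7, a small subunit gene, had 785, 1182 and 1339.9 with DMSO and 1686, 998 and 1251 with sunitinib. The genes that were high in DMSO replicate 1 and those that were low there came from both subunits.

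In 4 pairs of duplicated genes, both copies were expressed, and reads may have been shared between copies that are alike in sequence, so the split within a pair is uncertain. The deposited counts were exactly whole (tolerance 0) in all 6 libraries for every member except rpl6, whereas 11.5% of all genes had at least 1 count that was not whole. rpl5b supplied 42.4% of the reads of its pair, rps27.2 supplied 39.1%, rps26l 53.5% and rplp2l 48.6%. The ratio of rpl5a to rpl5b ran from 1.25 to 1.501 over the libraries and that of rps27.1 to rps27.2 from 1.41 to 1.71. rps27.1 had 815, 905 and 894 normalised CPM with DMSO and 1401, 811 and 1087 with sunitinib, with an estimate of 0.34 (SE 0.20) that was 0.13 without sunitinib replicate 1. Its copy rps27.2 had 495, 641 and 601 with DMSO and 838, 571 and 636 with sunitinib, with an estimate of 0.23 (SE 0.18) that was 0.06 without that library. Sunitinib replicate 1 was the highest library for both copies, and sunitinib replicate 2 lay below at least 1 DMSO library for both.

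The ratio of rps26 to rps26l was 0.727, 0.886 and 0.801 with DMSO and 0.973, 0.927 and 0.924 with sunitinib. All 3 sunitinib libraries lay above the DMSO range in this ratio, which was examined after the data were seen and not tested. In every other pair the ratios of the groups overlapped. rps26, which contacts the mRNA upstream of the decoding site, had 370.2, 345 and 299 normalised CPM with DMSO and 459, 350.0 and 387 with sunitinib. rps26l had 509, 389 and 373 with DMSO and 472, 377 and 418 with sunitinib. Their estimates were 0.24 and -0.0041 (SE 0.16 and 0.17), and the groups overlapped in each gene.

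The fifth pair was unequal. The deposited counts of rps8b were 8, 10 and 13 in the DMSO libraries and 19, 14 and 15 in the sunitinib libraries, 0.0492% of the reads of the pair. rps8a was at 1571, 1792 and 1656 normalised CPM with DMSO and 2411, 1619 and 1969.9 with sunitinib, an estimate of 0.26 (SE 0.19). rps8b was the 1 member whose sunitinib libraries all lay above the DMSO libraries, and no member had them all below. This is 1.27% of the members, beside 9.15% of all genes tested for above and 10.8% for below. The estimate for rps8b was 0.62 (SE 0.36, 95% interval -0.17 to 1.40), and with so few reads a share of misplaced reads from rps8a cannot be told apart from expression. rps19bp1 had 7.53, 18.9 and 18.5 normalised CPM with DMSO and 23.3, 16.9 and 18.3 with sunitinib, with an estimate of 0.38 (SE 0.27) that was 0.06 without DMSO replicate 1.

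Other genes of translation lie outside the symbol rule. rpsa and gnb2l1 (rack1), a small subunit protein and a scaffold on the small subunit, had estimates of -0.05 and -0.12 (SE 0.20 and 0.19). Of 17 tested elongation factor genes, 12 had estimates above 0 and 5 below, with a median of 0.17, and of 49 initiation factor genes 29 and 20, with a median of 0.06. As a share of the counts, the elongation factor list took 2.00% ± 0.024 with DMSO and 1.87% ± 0.035 with sunitinib (SD, n = 3). The initiation factor list took 0.719% ± 0.062 and 0.710% ± 0.093. The summed share of the elongation factors in unscaled counts was thus lower with sunitinib, although most of their estimates were above 0. Shares were not tested, and highly expressed genes weigh most in them. They are also taken of unscaled library totals, while the estimates use TMM scaling, so shares and estimates need not point the same way. At an unadjusted p under 0.05, eef1da, a subunit of the exchange factor of elongation, was the 1 elongation factor gene higher (5.88%, beside 7.51% of all genes), and none was lower. Its estimate of 0.46 (SE 0.19) was 0.28 without DMSO replicate 1. No elongation factor gene was higher at that level without DMSO replicate 1, sunitinib replicate 1 or sunitinib replicate 3 or with a replicate block. Of all genes, 6.91%, 4.91%, 4.88% and 5.69% were higher in those fits. The counts that follow are numbers of genes, while the values beside them are percentages of all genes. The higher count was 1 of 17 without DMSO replicate 3 (beside 5.92% of all genes) or with the length trend taken out (beside 5.68%). It was 2 of 17 without sunitinib replicate 2 (beside 7.08% of all genes) and 4 of 17 without DMSO replicate 2 (beside 9.71%). Both are larger shares than those of all genes. The lower count was 1 of 17 without DMSO replicate 3 (beside 3.85%) or sunitinib replicate 2 (beside 4.42%), and 2 of 17 with the length trend taken out (beside 5.77%). Among the initiation factors 5 were higher (10.2%, beside 7.51%) and 6 lower (12.2%, beside 6.12%). For the initiation factors, the higher count was 2 of 49 without DMSO replicate 3 (beside 5.92%) or with the length trend taken out (beside 5.68%). It was 3 of 49 without sunitinib replicate 2 (beside 7.08%). It was 4 of 49 without sunitinib replicate 1 or 3 (beside 4.91% and 4.88%) or with a replicate block (beside 5.69%). Without DMSO replicate 1 it was 6 of 49 (beside 6.91% of all genes), and without DMSO replicate 2 it was 7 of 49 (beside 9.71%). Their lower count was 3 of 49 without DMSO replicate 1 or 3 (beside 5.65% and 3.85% of all genes), and 2 of 49 without sunitinib replicate 1 or 2 (beside 4.02% and 4.42%). It was 4 of 49 without DMSO replicate 2 (beside 7.73%) or with the length trend taken out (beside 5.77%). It was also 4 with a replicate block, for which the share of all genes lower is not given here. Without sunitinib replicate 3 it was 5 of 49 (beside 3.51%). The smallest p among them was that of eif3eb, an eIF3 subunit, at 0.68 (SE 0.19, adjusted p = 0.285, edgeR). No gene of these lists passed an adjusted p of 0.05.

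Ribosome biogenesis genes encode the factors that assemble the subunits. Of 98 tested genes of this list, 30 had estimates above 0 and 68 below, with a median of -0.14. At an unadjusted p under 0.05, 20 were lower (20.4%, beside 6.12% of all genes) and 4 were higher (4.08%, beside 7.51%), and none passed an adjusted p of 0.05. The early assembly factor gene utp20 had 20.6, 17.2 and 19.1 normalised CPM with DMSO and 13.7, 12.9 and 12.0 with sunitinib, so that the groups did not overlap. It was named for the smallest p of the list, so this separation adds no support. Of all genes tested, 10.8% had every sunitinib library below every DMSO library. Its estimate was -0.56 (SE 0.14, adjusted p = 0.266, edgeR). ftsj3 and pdcd11, which act in rRNA methylation and processing, had -0.49 and -0.48 (SE 0.14 for both). The count of 20 lower genes among the 98 was 8 without DMSO replicate 1, where 5.65% of all genes were lower. It was 6 of 98 without sunitinib replicate 1 (beside 4.02% of all genes) and 7 of 98 without sunitinib replicate 3 (beside 3.51%). It was 24 of 98 without DMSO replicate 2 (beside 7.73%). It was 19 of 98 without DMSO replicate 3 (beside 3.85%) or without sunitinib replicate 2 (beside 4.42%). With a replicate block it was 14, and the share of all genes lower in that fit is not given here. With the length trend taken out it was 25 of 98 (beside 5.77% of all genes). The list's median was -0.05 without DMSO replicate 1. Beside them, 14 of 20 cell cycle genes had estimates below 0 with a median of -0.16, and their part in the biogenesis genes was not tested.

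For RNA polymerase I and III and their factors, 14 of 28 tested genes had estimates above 0 and 14 below. At an unadjusted p under 0.05, 4 were higher (14.3%, beside 7.51% of all genes) and 2 lower (7.14%, beside 6.12%). None passed an adjusted p of 0.05. With a library left out, the replicate block or the length trend taken out, 3 to 5 of 28 were higher. All genes higher in those fits were 4.88% to 9.71%. polr1a, the catalytic subunit of RNA polymerase I, had -0.44 (SE 0.16, adjusted p = 0.307, edgeR). zgc:112356, listed by RefSeq as maf1b, a copy of the repressor of RNA polymerase III, had 0.52 (SE 0.13, adjusted p = 0.221, edgeR). Of 51 genes of mTORC1 and translation control, 30 had estimates above 0 and 21 below, with a median of 0.02, and 3 were higher (5.88%, beside 7.51% of all genes) and none lower at an unadjusted p under 0.05. No gene of this list was higher at that level without sunitinib replicate 1 (beside 4.91% of all genes). The higher count was 1 of 51 without sunitinib replicate 3 (beside 4.88% of all genes), with the replicate block (beside 5.69%) or with the length trend taken out (beside 5.68%). Without DMSO replicate 1, 4 of 51 were higher (beside 6.91%) and 4 of 51 lower (beside 5.65%). Without DMSO replicate 2, 5 of 51 were higher (beside 9.71%) and 1 of 51 lower (beside 7.73%). Without sunitinib replicate 2, 4 of 51 were higher (beside 7.08%), and without DMSO replicate 3, 2 of 51 were (beside 5.92%). None was lower in either fit (beside 4.42% and 3.85%). The 3 genes were lamtor2, which anchors mTORC1 at the lysosome, and the translation repressor genes eif4ebp3l and eif4ebp3, at 0.51, 0.33 and 0.42 (SE 0.19, 0.14 and 0.19). With the length trend taken out they were at 0.30, 0.13 and 0.22. Other genes of the list went the other way, with mtor, rptor and larp1 at -0.27, -0.33 and -0.24 (SE 0.13, 0.16 and 0.15).

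For p53 and its targets, 12 of 16 tested genes had estimates above 0 and 4 below, with a median of 0.28. At an unadjusted p under 0.05, 4 were higher (baxa, casp8, phlda3 and cdkn1a, 25% of the list beside 7.51% of all genes) and none lower, where 6.12% of all genes were lower, and none passed an adjusted p of 0.05. With a library left out, the replicate block or the length trend taken out, 3 to 6 of 16 were higher. In the fit without the length trend 1 was lower. cdkn1a had few reads, at 1.07 to 2.85 normalised CPM. mdm2 had an estimate of 0.08 (SE 0.20) and tp53inp1 of -0.24 (SE 0.15). For ccng1 the estimate of 0.33 (SE 0.23) was 0.08 without DMSO replicate 1. baxa, which encodes a pore-forming protein of apoptosis, had 17.8, 20.2 and 17.4 normalised CPM with DMSO and 24.5, 27.8 and 26.3 with sunitinib. Its groups did not overlap, and the estimate was 0.50 (SE 0.14, adjusted p = 0.285, edgeR). baxa too was named for the smallest p of its list, and 9.15% of all genes tested had every sunitinib library above every DMSO library. A further list held 27 tested genes outside the members with a known pyrimidine tract. It overlaps the elongation and initiation factor lists (eef1da and eif3eb among others) and is not a separate set. Of the 27, 13 had estimates above 0 and 14 below, with a median of -0.02, and none passed an adjusted p of 0.05. At an unadjusted p under 0.05, 3 were higher (11.1%, beside 7.51% of all genes) and 4 lower (14.8%, beside 6.12%). With a library left out, the replicate block or the length trend taken out, 1 to 5 were higher and 2 to 7 lower. Their summed share of the unscaled counts was 2.57% ± 0.025 with DMSO and 2.40% ± 0.070 with sunitinib (SD, n = 3), a difference that was not tested.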

How the data were processed

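Per the labels, reads were strand-specific, paired and 150 bases long, and the genome build named by the submitters is GRCz11. The sources used here do not give aligner, counter or annotation. The authors deposited estimated counts per gene, FPKM and TPM (scaled by length and depth), and a normalized read count signal, the count divided by 1 factor per library, which was not used. The 8 columns of group averages were not used. At totals of 13394060 to 15294706 estimated reads, counting error was small for all members but rps8b.

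Estimated counts were rounded and tested with edgeR 4.0.16 in R 4.3.3 (TMM, filterByExpr, quasi-likelihood F-test, Benjamini-Hochberg adjustment, threshold 0.05, biological coefficient of variation 0.153). The scripts were tested on simulated data. Standard errors came from the F statistic, and 95% intervals from the moderated degrees of freedom. Deviations were taken on log2(CPM + 0.5). Effective length came from the deposited counts and FPKM, and its trend was a lowess curve of span 0.3 per library. Alternatives were DESeq2 1.42.0, limma 3.58.1 on log2(FPKM + 1) or log2(FPKM + 0.1), other scaling and filters, a replicate block and leaving out libraries. Replicates were pools of larvae, so p-values measure the spread between pools.

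Members and lists were chosen with earlier results of these data known. List genes were matched by symbol, then by RefSeq synonym (23 entries). Members were named by smallest p (10), highest (10) and lowest (5) mean TPM, distance from the median fold change (3 on each side), duplication and known roles. From other lists up to 3 genes of smallest p were named. Further genes were named after their values were seen. Among members these were rpl3, rpl4, rpl38, rps7 and rps21. Outside them they were rpsa, gnb2l1, cdkn1a, mdm2, tp53inp1, ccng1, mtor, rptor and larp1. Some genes that the rule names are not reported here, though they count in the totals. Promoter and protein sequences were not used here.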

Additional observations from a re-analysis of the deposited data

How the results depend on the processing

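In the 18 alternatives to the edgeR fit (other scaling, filters, DESeq2, limma on FPKM, the length trend, the replicate block and each library left out), 0 members passed an adjusted p of 0.05. The members' median log2 fold change, 0.09, turned to -0.0813 once the length trend was removed and to -0.0808 with the replicate block and that trend together, and it was -0.0204 without DMSO replicate 1 and sunitinib replicate 1. It ran from -0.096 to 0.233 when each library was left out in turn. In those fits 0 to 3 members had an unadjusted p under 0.05, the count of 3 (3.797%, beside 7.08% of all genes higher) without sunitinib replicate 2. The difference in the share of counts, -0.239 percentage points, ran from -1.07 to 0.708 with each library left out, and was 0.0704 outside skeletal muscle genes and -1.87 as a share of TPM. Of the 79 members, 22 kept the sign of their estimate in all 18 alternatives, 19 of them positive and 3 negative (rpl3, rplp0 and rps9). Correlations over genes of same-numbered deviations were -0.20, -0.11 and 0.03. Such a correlation takes no account of a level shared by all genes, so it cannot tell whether the replicate numbers pair the libraries. The replicate block gave a median of 0.07 and 0 calls. The cause of these shifts was not tested. With 3 libraries a group, intervals of most members were wider than 0.5 on the log2 scale on at least 1 side.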
